A study of Mus musculus with 24 samples.

Results

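The genes described here are 31 mouse genes for the chaperones of the endoplasmic reticulum (ER) and for the unfolded protein response, chosen by symbol. They were chosen with earlier results of these data known, so their shares beside those of all genes are descriptions and not tests. All 31 were found among the 24421 rows of each of the 2 deposited gene count tables. Of these, 30 passed the filter on low counts in each table, and Derl3, a derlin of the degradation machinery, had 0 counts in all 12 libraries.

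The ER is where secreted and membrane proteins enter the secretory route, fold with the help of chaperones and form disulphide bonds. When unfolded proteins build up, 3 sensors in the ER membrane respond: IRE1 (gene Ern1) splices the mRNA of the transcription factor XBP1, PERK (gene Eif2ak3) slows translation, and ATF6 is cut in the Golgi to release a transcription factor. Together they raise the genes of chaperones, of co-chaperones and of the machinery that sends misfolded proteins out of the ER for degradation. Gene counts do not separate the spliced from the unspliced form of Xbp1, and they do not show the cutting of ATF6 or the activity of PERK.

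The study knocked down Fto, which encodes an eraser of the RNA mark N6-methyladenosine (m6A), in B16-OVA, a C57BL/6 mouse melanoma line that carries ovalbumin, and grew all its tumour lines with puromycin. Tumour RNA was sequenced from 3 libraries of cells with a hairpin against Fto (shFto) and 3 of cells with the control hairpin (shNC), and open chromatin (ATAC-seq) from another 3 of each. OT-I CD8 T cells, C57BL/6 cells with a receptor for an ovalbumin peptide, were sorted after 8 h with shFto-1, shFto-2 or shNC tumour cells in medium with IL-2, and gave 2 RNA libraries per tumour line. For m6A there was 1 peak list each from shFto cells in DMSO, shNC cells in 5 µM Dac51, a compound known from the labels by its code only, and shNC cells in DMSO, all treated for 48 h. The labels of the tumour libraries do not say which shFto line was used, and no label states whether the libraries within a group are separate cultures or mice. The p-values are therefore about the spread from library to library, which may be technical.

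Total counts were 11152404 to 19665589 per tumour library and 2628158 to 13066355 per T cell library, the lowest being an shNC co-culture. Fto itself had 31.7, 33.5 and 28.3 CPM (the gene's count scaled to an equal library size) in the shFto tumour libraries, against 107, 108 and 91.8 CPM in the shNC libraries (log2 fold change -1.72 ± 0.10, SE, n = 3 each, edgeR adjusted p = 1.6e-10). In T cells Fto was not called (log2 fold change 0.09, adjusted p = 0.648). Melanoma markers summed to 23125 to 23998 CPM in shFto tumour libraries and 18329 to 19334 CPM in shNC tumour libraries. The CD8 T cell markers there summed to 5.93 to 7.14 and 4.12 to 5.54 CPM, nearly all of it from Lck. In each tumour library 6 or 7 of these 8 markers had 0 counts. In the T cell libraries all 9 melanoma markers were detected, at a sum of 1709 to 1973 CPM beside shFto cells and 1332 and 1719 CPM beside shNC cells, and the 8 CD8 T cell markers summed to 2794 to 3412 CPM beside shFto cells and 3863 and 3994 CPM beside shNC cells. Pmel, Tyr and Tyrp1 were called higher beside shFto cells and the other 6 melanoma markers were not called, while 7 of the 8 T cell markers were called lower. Markers of B cells, myeloid cells, CD4 T cells and NK cells summed to at most 10.7 CPM in any of the 12 libraries. Each T cell result below stands beside these values, and their part in it was not tested. Fewer cells of a type and less RNA per cell cannot be told apart in these libraries.

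The promoters of many of these genes share a sequence, the ER stress element, to which the factor NF-Y binds at CCAAT and cleaved ATF6 at CCACG. It was searched as CCAAT, any 9 bases, CCACG, on both strands, from 250 bases before to 50 bases after the start of each gene in RefSeq's promoter table (build GRCm38.p6). Because many promoters of such genes are known to share the element, the shares that follow describe these genes and test nothing. Of the 31 genes, 25 had an entry. The element was held by 37 of 27025 genes in the table (0.137%) and by 17 of the 8949 with an entry that were tested in tumour cells (0.19%). Of the 25 genes, 9 held it (36.0%). The 250 bases before the start are printed for 4 that were called in at least 1 of the RNA comparisons below. They are Hspa5 (chr2:34771840-34772089, plus strand), the main ER chaperone BiP; Hsp90b1 (chr10:86705445-86705694, minus strand), the ER form of HSP90; Calr (chr8:84846932-84847181, minus strand), the lectin chaperone calreticulin; and Canx (chr11:50325674-50325923, minus strand), its membrane-bound relative calnexin. Each is written 5′ to 3′ on the strand of its gene, with the 2 words of the element in capitals.
Hspa5: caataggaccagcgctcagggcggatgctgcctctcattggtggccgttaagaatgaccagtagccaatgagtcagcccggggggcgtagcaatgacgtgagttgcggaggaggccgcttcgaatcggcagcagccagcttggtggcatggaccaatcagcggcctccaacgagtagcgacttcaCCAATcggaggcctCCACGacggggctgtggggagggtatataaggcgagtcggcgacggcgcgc
Hsp90b1: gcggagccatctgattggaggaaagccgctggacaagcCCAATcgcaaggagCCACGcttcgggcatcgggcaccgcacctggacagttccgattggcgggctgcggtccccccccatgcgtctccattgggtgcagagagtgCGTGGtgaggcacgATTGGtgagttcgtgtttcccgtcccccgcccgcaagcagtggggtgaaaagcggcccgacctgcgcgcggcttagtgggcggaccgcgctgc
Calr: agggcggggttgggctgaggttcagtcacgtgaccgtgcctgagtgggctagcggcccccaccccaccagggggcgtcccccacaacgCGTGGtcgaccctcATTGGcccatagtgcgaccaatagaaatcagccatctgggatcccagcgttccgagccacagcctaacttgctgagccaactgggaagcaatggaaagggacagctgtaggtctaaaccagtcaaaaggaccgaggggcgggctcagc
Canx: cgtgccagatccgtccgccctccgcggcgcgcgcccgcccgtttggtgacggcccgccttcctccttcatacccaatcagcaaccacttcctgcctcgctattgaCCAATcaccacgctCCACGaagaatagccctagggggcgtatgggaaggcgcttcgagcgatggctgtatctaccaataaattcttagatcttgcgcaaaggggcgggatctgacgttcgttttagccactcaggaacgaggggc

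Hsp90b1 held 2 elements, beginning 212 and 107 bases before the start, and the other 3 genes held 1 each, at 65, 162 and 145 bases before the start in Hspa5, Calr and Canx. In Calr and at the second place in Hsp90b1 the element lies on the opposite strand, so that it reads CGTGG, 9 bases, ATTGG. The other 5 genes with an element are shown, after their RNA values were seen, as windows of 39 bases around it, so that the spacer can be compared. They are Pdia6 (chr12:17266481-17266519, plus strand), a disulphide isomerase; Dnajc3 (chr14:118937817-118937855, plus strand), a co-chaperone also known to inhibit PERK; Creld2 (chr15:88819510-88819548, plus strand), a secreted protein induced by ER stress; Syvn1 (chr19:6046522-6046560, plus strand), the ubiquitin ligase HRD1; and Derl3 (chr10:75893232-75893270, plus strand).
Pdia6: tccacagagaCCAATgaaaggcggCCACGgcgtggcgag
Dnajc3: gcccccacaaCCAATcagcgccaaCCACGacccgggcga
Creld2: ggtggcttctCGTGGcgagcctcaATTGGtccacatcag
Syvn1: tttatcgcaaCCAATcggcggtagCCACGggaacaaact
Derl3: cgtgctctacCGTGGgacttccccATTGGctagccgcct

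The 2 words are the same in all 9 genes because the search fixed them, and the 9 bases between differ from gene to gene. The related second element (ATTGG, 1 base, CCACG) was found in Herpud1 and Dnajb11, 2 of 25 genes (8.0%). It was found in 0.0444% of the table and in 0.0894% of the genes tested in tumour cells. The short words alone were common. CCACG was found in 80.0% of these promoters, 35.5% of the table and 53.3% of the genes tested in tumour cells. For CCAAT the shares were 84.0%, 41.1% and 43.5%. The word TGACGTG was found in 1 gene (4.0%), against 2.22% of the table and 3.4% of the genes tested in tumour cells. Atf6, Hyou1, Manf, Derl1, Sec61a1 and Sil1 had no entry. A match describes these letters and is not evidence of binding.

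**Figure D1:**
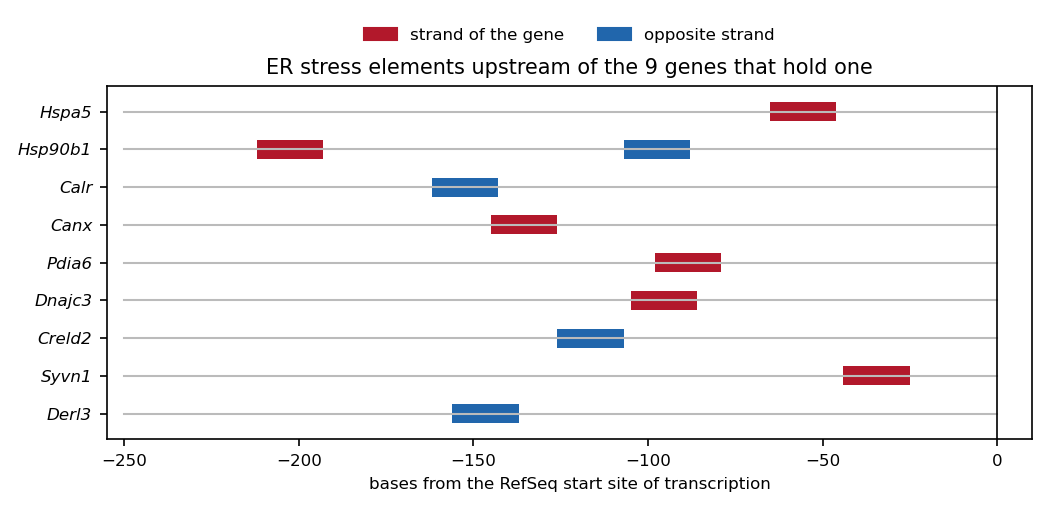
Positions of the ER stress elements (bars) on the 250 bases before the RefSeq start site (x axis, bases; grey lines) of the 9 genes that hold one. Red bars read along the gene and blue bars on the opposite strand; all 10 elements begin between 212 and 44 bases before the start.

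In the ATAC-seq peak lists of the tumour cells, 24 of the 25 genes with an entry (96.0%) had a peak within 500 bases of the start in all 6 libraries, against 92.1% of the genes tested in tumour cells and 40.4% of the table. Derl3, which had no RNA counts, had a peak in none of the 6.

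In tumour cells, the question was how these genes differ between shFto and shNC cells. Of the 30 tested genes, 12 rose and 3 fell in shFto cells (edgeR quasi-likelihood test, adjusted p below 0.05), which is 50%, against 32.8% of all 11718 genes tested. Risers made up 40% of the 30 genes and 15.9% of all genes, and fallers 10% and 16.9%. The median log2 fold change was 0.17 in these genes and -0.003 in all genes. Apart from Atf6, the changes lay between -0.39 and 0.50. Counted by libraries, all 3 of shFto cells lay above all 3 of shNC cells in 15 of the 30 genes, against 22.5% of all genes, and below them in 3, against 22.7%.

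The sensor gene Atf6 showed the largest change of the 30. It had 78.6, 75.8 and 82.2 CPM in shFto cells, against 44.0, 44.5 and 41.7 CPM in shNC cells. Its log2 fold change was 0.86 ± 0.09 (SE, edgeR adjusted p = 6.48e-07) and the groups did not overlap. Eif2ak3, the gene of PERK, had 79.0, 89.4 and 86.5 CPM in shFto cells, against 66.2, 76.6 and 68.6 CPM in shNC cells, and rose by 0.27 ± 0.09 on the log2 scale (adjusted p = 0.0239). The third sensor, Ern1, had 47.5, 40.6 and 53.4 CPM in shFto cells, against 50.2, 45.2 and 45.6 CPM in shNC cells. Its log2 fold change of 0.01 (95% interval -0.21 to 0.23) did not pass the test. Xbp1, the mRNA that IRE1 splices, had 75.0, 73.8 and 67.3 CPM in shFto cells, against 67.3, 68.6 and 83.7 CPM in shNC cells, and its log2 difference was -0.02 (-0.22 to 0.17). Of the 4 genes of sensors and factors, then, the groups were apart for Atf6 and Eif2ak3 and overlapped for Ern1 and Xbp1.

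Among the 7 chaperones and glycoprotein folding factors of the ER lumen and membrane, 2 rose and 1 fell. Canx had 1290, 1448 and 1171 CPM in shFto cells, against 1038, 1080 and 934 CPM in shNC cells, with no overlap (log2 fold change 0.36 ± 0.09, edgeR adjusted p = 0.00618). Hspa5 had 1303, 1455 and 1227 CPM in shFto cells, against 1092, 1085 and 1163 CPM in shNC cells. All 3 shFto libraries lay above all 3 shNC libraries, by a narrow gap (0.25 ± 0.09, adjusted p = 0.0304), and the call was lost when any 1 of 4 of the 6 libraries was left out (adjusted p up to 0.158). Sil1, which exchanges the nucleotide of BiP, averaged 22.7 CPM in shFto cells and 27.8 CPM in shNC cells, and fell by 0.30 on the log2 scale (adjusted p = 0.0493). That call was lost under 9 of 10 alternatives. Hsp90b1 (log2 fold change 0.19) and Uggt1, the sensor of glycoprotein folding (0.18), missed the threshold with an adjusted p of 0.0805 and 0.0812, although their groups did not overlap. Calr (0.07) and Hyou1 (0.01), a large HSP70 relative that also exchanges the nucleotide of BiP, did not pass the test.

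Of the 5 isomerases, Pdia3 rose and Ppib fell. Pdia3, the isomerase that works with calnexin and calreticulin, had 873, 916 and 818 CPM in shFto cells, against 682, 677 and 716 CPM in shNC cells (0.33 ± 0.08, edgeR adjusted p = 0.00442). Ppib, the prolyl isomerase cyclophilin B, had 221, 214 and 242 CPM in shFto cells, against 267, 249 and 326 CPM in shNC cells (-0.31 ± 0.09, adjusted p = 0.016). Neither gene's groups overlapped. The 3 other disulphide isomerases, Pdia4 (0.11), Pdia6 (0.17) and P4hb (-0.06), did not pass the test.

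Of the 4 co-chaperones, 3 rose. Dnajb11, a J-domain partner of BiP, had 249, 278 and 230 CPM in shFto cells, against 218, 202 and 201 CPM in shNC cells (0.29 ± 0.08, edgeR adjusted p = 0.0135). Dnajc3 had 200, 221 and 176 CPM in shFto cells, against 155, 160 and 159 CPM in shNC cells (0.33 ± 0.09, adjusted p = 0.0059). Both pairs of groups were apart. Dnajb9, a J-domain protein known to hold IRE1 inactive through BiP, averaged 17.0 CPM in shFto cells and 12.1 CPM in shNC cells, a rise of 0.48 ± 0.16. Sdf2l1, which acts beside Dnajb11, did not pass the test (0.23, adjusted p = 0.0649). Of the secreted proteins, Manf, a stress-induced factor that also binds BiP, had 181, 205 and 167 CPM in shFto cells, against 146, 136 and 158 CPM in shNC cells (0.33 ± 0.09, adjusted p = 0.00758), with no overlap, and Creld2 differed by -0.01.

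In the degradation group, 2 of 6 tested genes rose and none fell. Derl2, a derlin of the channel that carries misfolded proteins out of the ER, had 38.7, 43.1 and 35.7 CPM in shFto cells, against 29.6, 29.5 and 23.8 CPM in shNC cells (0.50 ± 0.11, edgeR adjusted p = 0.00253). Edem1, which helps to select glycoproteins for degradation, averaged 146 CPM in shFto cells and 121 CPM in shNC cells (0.27 ± 0.08, adjusted p = 0.0166). The groups did not overlap for either gene. Sel1l and Syvn1, which form the core of the ubiquitin ligase complex, Derl1 and the stress-induced Herpud1 had log2 fold changes of -0.13 to 0.06 and did not pass the test.

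The 2 translocon genes went opposite ways. Sec61a1, the channel subunit of the translocon, had 376, 388 and 350 CPM in shFto cells, against 288, 301 and 265 CPM in shNC cells (0.38 ± 0.08, edgeR adjusted p = 0.0014). Sec61b, a small subunit of the same complex, had 170, 165 and 210 CPM in shFto cells, against 217, 214 and 283 CPM in shNC cells (-0.39 ± 0.11, adjusted p = 0.00903). The groups were apart in both. Of the 15 calls in tumour cells, 7 held under all 10 alternatives run: Canx, Pdia3, Dnajc3, Manf, Atf6, Derl2 and Sec61a1. Scaling by library totals alone moved the split of the calls to 16 higher and 2 lower, and over all genes to 2377 higher and 1587 lower, against 1864 higher and 1977 lower with TMM scaling.

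**Figure D2:**
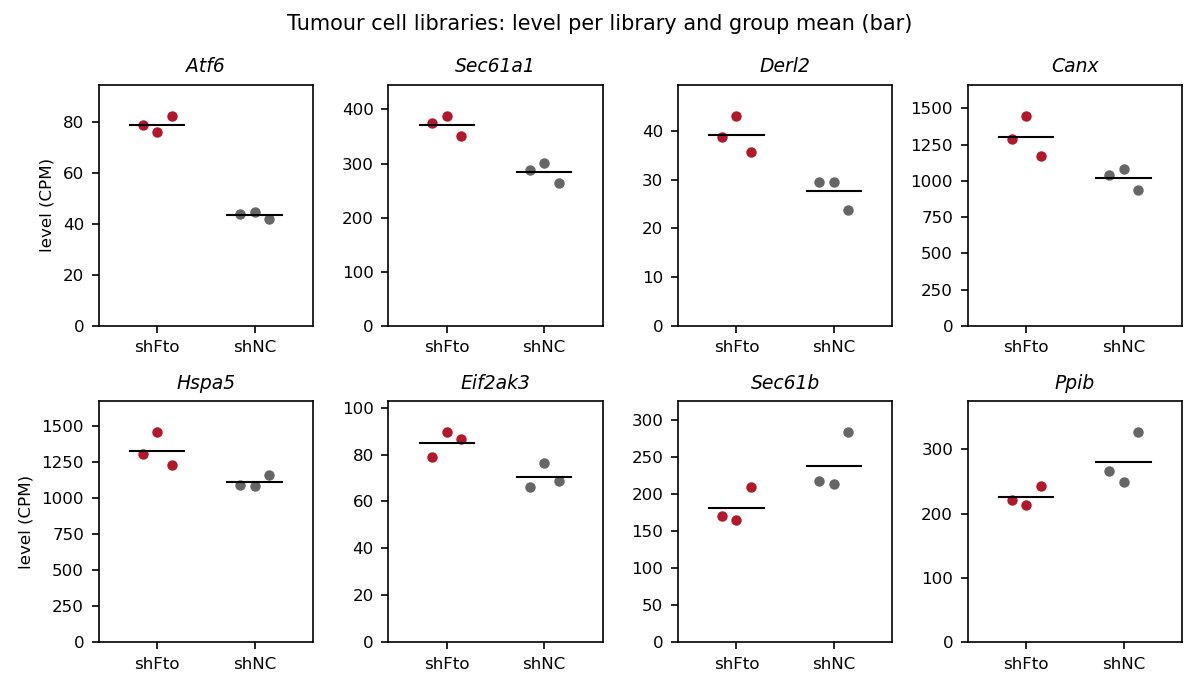
Levels (y axis, CPM, starting at 0) of 8 genes in the tumour libraries; each point is 1 of 3 libraries of the group and the bar is the group mean, with shFto cells left and shNC cells right. In all 8 the points of the groups are apart: Sec61b and Ppib are lower in shFto cells and the other 6 higher, with the largest ratio of the means for Atf6 (78.8 CPM in shFto cells and 43.4 CPM in shNC cells).

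Other genes of the same pathways, from 6 lists that do not include the 31, were counted in the same fit, where 15.9% of all genes rose and 16.9% fell. Of the 10 genes of the PERK arm, 2 rose and 2 fell. Ddit3, the factor CHOP, averaged 59.0 CPM in shFto cells and 36.3 CPM in shNC cells (log2 fold change 0.70, edgeR adjusted p = 2.67e-05), Trib3 rose by 0.53, and Atf3 fell to 2.12 CPM in shFto cells, against 4.46 CPM in shNC cells. Of 33 genes of translocation, signal peptide cleavage and N-glycosylation, 10 rose and 2 fell. Ssr3 and Tram1, which accompany the translocon, and Sec63, which couples it to BiP, rose by 0.78, 0.57 and 0.49. Of 18 other degradation genes 6 rose and none fell, among them Ubxn4 (0.35), Vimp (0.38) and Ufd1l (0.37). Of 21 oxidative folding genes 6 rose and 4 fell, with Pdia5 higher (0.58) and Erp29 (-0.42) and Dnajc1 (-0.42) lower. Of 11 genes of ATF6 processing and related factors 3 rose and 2 fell: Mbtps2, the protease that makes the second cut in ATF6, rose by 0.55, and Nfyc and Nfya, subunits of NF-Y, had values of -0.57 and 0.33, both called. Of 19 genes of ER exit and retrieval 3 rose, Sar1b (0.49) and Sar1a (0.36) among them, and 3 fell, with Tmed10 at -0.39. The medians of the 6 lists lay between -0.04 and 0.16.

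In T cells, the question was how the same genes differ in CD8 T cells that met shFto rather than shNC tumour cells. In the mean of both shFto co-cultures against shNC, 16 of the 30 tested genes rose and 3 fell (edgeR adjusted p below 0.05). That is 63.3%, against 32.9% of all 12824 genes tested. Risers made up 53.3% of these genes and 20.3% of all, and fallers 10% and 12.7%. The median log2 fold change was 0.37 in these genes and -0.01 in all genes. All 4 libraries beside shFto cells lay above both beside shNC cells in 19 of the 30 genes, against 28.2% of all genes, and below them in 3, against 23.0%.

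Of the 7 chaperones and glycoprotein folding factors, 5 rose and none fell. Hyou1 had 295 and 300.1 CPM beside shFto-1 cells and 360 and 403 CPM beside shFto-2 cells, against 167 and 157 CPM beside shNC cells. Its log2 fold change, 1.06 ± 0.09, was the largest of the 30 (edgeR adjusted p = 4e-05), and every library beside shFto cells was above both beside shNC cells. Canx had 955 and 913 CPM beside shFto-1 and 1036 and 1079 CPM beside shFto-2, against 570.0 and 624 CPM beside shNC (0.73 ± 0.08, adjusted p = 0.000104). Calr had 1153 and 1233 CPM beside shFto-1 and 1276 and 1457 CPM beside shFto-2, against 762 and 826 CPM beside shNC (0.68 ± 0.09, adjusted p = 0.00024). These genes kept the groups apart as Hyou1 did. Hsp90b1 had 1119 and 1253 CPM beside shFto-1 and 1421 and 1615 CPM beside shFto-2, against 851 and 883 CPM beside shNC (0.63 ± 0.09, adjusted p = 0.000404). Hspa5 had 1158 and 1303 CPM beside shFto-1 and 1300 and 1637 CPM beside shFto-2, against 852 and 939 CPM beside shNC (0.58 ± 0.11, adjusted p = 0.00203). Here too no library beside shFto cells reached down to the shNC values. Uggt1 (0.13) and Sil1 (0.32 ± 0.27) did not pass the test.

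Of the 5 isomerases 4 rose. P4hb, the founding disulphide isomerase, had 715 and 698 CPM beside shFto-1 and 784 and 760.0 CPM beside shFto-2, against 451 and 462 CPM beside shNC (0.69 ± 0.07, edgeR adjusted p = 0.000107). Pdia6 (0.62), Pdia3 (0.40) and Pdia4 (0.38) rose by less, and Ppib (0.21, adjusted p = 0.098) missed the threshold with groups that did not overlap. Both secreted proteins rose. Manf had 122 and 112 CPM beside shFto-1 and 118 and 118 CPM beside shFto-2, against 68.2 and 78.2 CPM beside shNC (0.67 ± 0.10, adjusted p = 0.000711), and Creld2 rose by 0.71 ± 0.13. Of the 4 co-chaperones 1 rose: Dnajb11 had 117 and 129 CPM beside shFto-1 and 135 and 158 CPM beside shFto-2, against 87.9 and 78.7 CPM beside shNC (0.70 ± 0.11, adjusted p = 0.000877). Dnajb9 (0.35), Sdf2l1 (0.44) and Dnajc3 (-0.19) did not pass the test. Both translocon genes rose, Sec61b by 0.80 ± 0.15 and Sec61a1 by 0.36 ± 0.09.

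Among the sensors, Atf6 rose and Eif2ak3 fell. Atf6 had 64.7 and 56.9 CPM beside shFto-1 and 84.0 and 82.1 CPM beside shFto-2, against 36.1 and 36.8 CPM beside shNC (0.97 ± 0.11, edgeR adjusted p = 0.000181). Eif2ak3 had 51.4 and 58.8 CPM beside shFto-1 and 41.5 and 43.4 CPM beside shFto-2, against 94.3 and 75.6 CPM beside shNC (-0.80 ± 0.12, adjusted p = 0.000704). The groups were apart in opposite directions. Xbp1 had 59.1 and 59.4 CPM beside shFto-1 and 60.8 and 61.9 CPM beside shFto-2, against 43.9 and 49.9 CPM beside shNC. It rose by 0.35 ± 0.11 (adjusted p = 0.0348), a call lost under 8 of 10 alternatives. Ern1 had 19.0 and 23.9 CPM beside shFto-1 and 29.7 and 32.5 CPM beside shFto-2, against 33.9 and 20.6 CPM beside shNC, so its groups overlapped and it did not pass the test (-0.03, 95% interval -0.49 to 0.43).

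Among the degradation genes, none of the 6 tested rose and 2 fell. Edem1 had 149.9 and 151 CPM beside shFto-1 and 131 and 111 CPM beside shFto-2, against 198 and 210.0 CPM beside shNC (-0.60 ± 0.09, edgeR adjusted p = 0.000741). Sel1l averaged 91.4 CPM beside shFto cells and 112 CPM beside shNC cells (-0.30 ± 0.09, adjusted p = 0.0313). In both genes all 4 libraries beside shFto cells were below both beside shNC cells. Syvn1 (0.31), Derl1 (0.30), Derl2 (0.01) and Herpud1 (-0.07) did not pass the test.

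**Figure D3:**
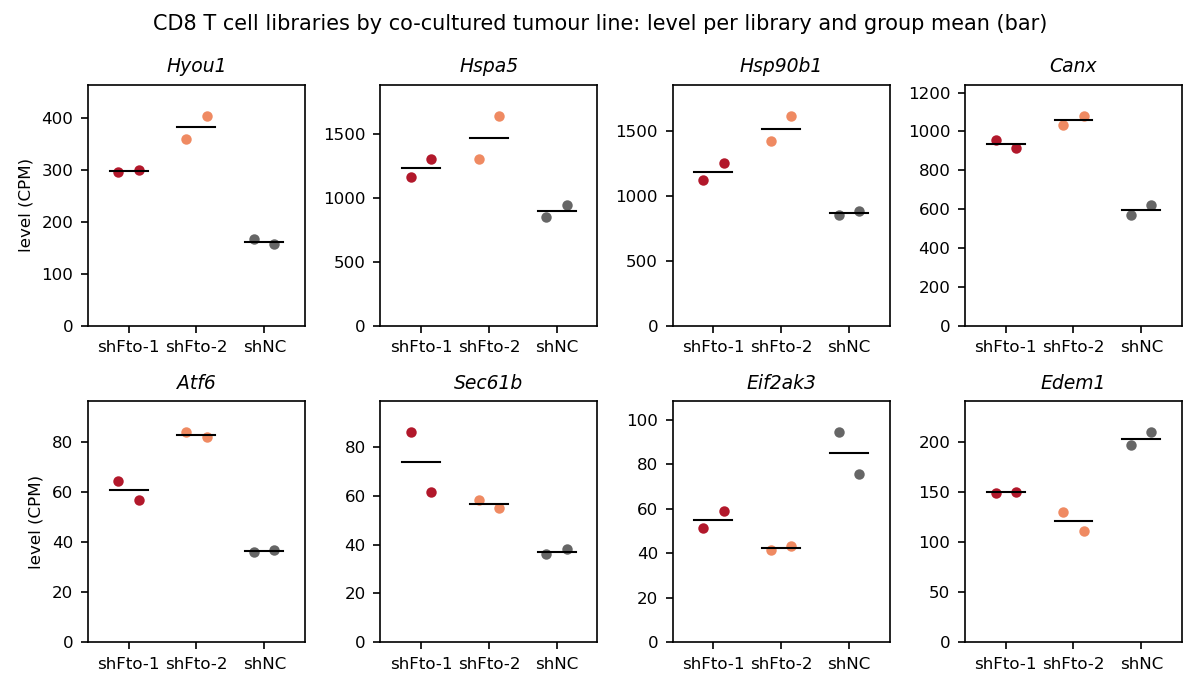
Levels (y axis, CPM, starting at 0) of 8 genes in the CD8 T cell libraries, by the tumour line of the co-culture; each point is 1 of 2 libraries and the bar is the group mean. In all 8 the libraries beside shFto-1 and shFto-2 cells are apart from those beside shNC cells, on the lower side for Eif2ak3 and Edem1 and on the higher side for the other 6.

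Against the same shNC libraries, which both contrasts share, the lines gave these values. Beside shFto-1 cells 12 genes rose and 2 fell, 46.7% of 30 against 22.2% of all genes (15.4% higher and 6.84% lower), with a median of 0.33 against 0.021 for all genes. Beside shFto-2 cells 16 rose and 2 fell, 60% against 33.7% of all genes (20.4% higher and 13.3% lower), with a median of 0.46 against -0.026. Hyou1 rose by 0.88 beside shFto-1 and 1.24 beside shFto-2, Atf6 by 0.74 and 1.19, Hsp90b1 by 0.45 and 0.81, and Pdia6 by 0.45 and 0.79. Eif2ak3 fell by 0.62 beside shFto-1 and by 0.99 beside shFto-2, and Edem1 by 0.44 and 0.75. Sec61b rose by 1.00 beside shFto-1 and 0.61 beside shFto-2. Of the 14 calls beside shFto-1, 7 held under all 10 alternatives, some of which leave 1 library in a group. Of the 18 calls beside shFto-2, 13 held. Hsp90b1, Pdia6, Eif2ak3 and Edem1 were among the 13 and not among the 7, and Sec61b was among the 7 only.

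The difference between the lines was tested itself. In shFto-2 against shFto-1 co-cultures, 0 of the 30 genes were called by edgeR, against 1.91% of all genes. An unadjusted edgeR p below 0.05 was found for 8 of the 30 (26.7%), against 16.3% of all genes. DESeq2 called 4 of the 29 to which it gave an adjusted p (13.8%), against 12.6% of all such genes, namely Hsp90b1, Hyou1, Pdia6 and Atf6. The log2 differences of those 4 were 0.36, 0.36, 0.35 and 0.44 by edgeR. Their 95% intervals (0.14 to 0.57, 0.14 to 0.57, 0.09 to 0.60, and 0.18 to 0.70) stayed above 0 before adjustment. Those 4 were picked by DESeq2 from the same libraries, so their intervals and their separation by library add no support of their own. Both shFto-2 libraries lay above both shFto-1 libraries in 15 of the 30 genes, those 4 among them, against 23.5% of all genes, and below them in 6, against 23.2%.

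Of the 19 calls in the mean contrast, 14 held under all 10 alternatives, Hyou1, Hspa5, Hsp90b1, Calr, Canx, Atf6, Eif2ak3 and Edem1 among them. The scaling mattered for the weaker ones: with library totals in place of TMM the median of all genes moved to -0.181, against -0.01, and 12 genes rose and 4 fell. Xbp1, Pdia3, Pdia4 and Sec61a1 then missed the threshold and Dnajc3 was called lower (-0.36). Hyou1 (0.89), Atf6 (0.79) and Canx (0.56) kept the direction and the call. Over all genes the split of the calls was 2597 higher and 1623 lower with TMM and 1811 higher and 2422 lower with library totals.

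**Figure D4:**
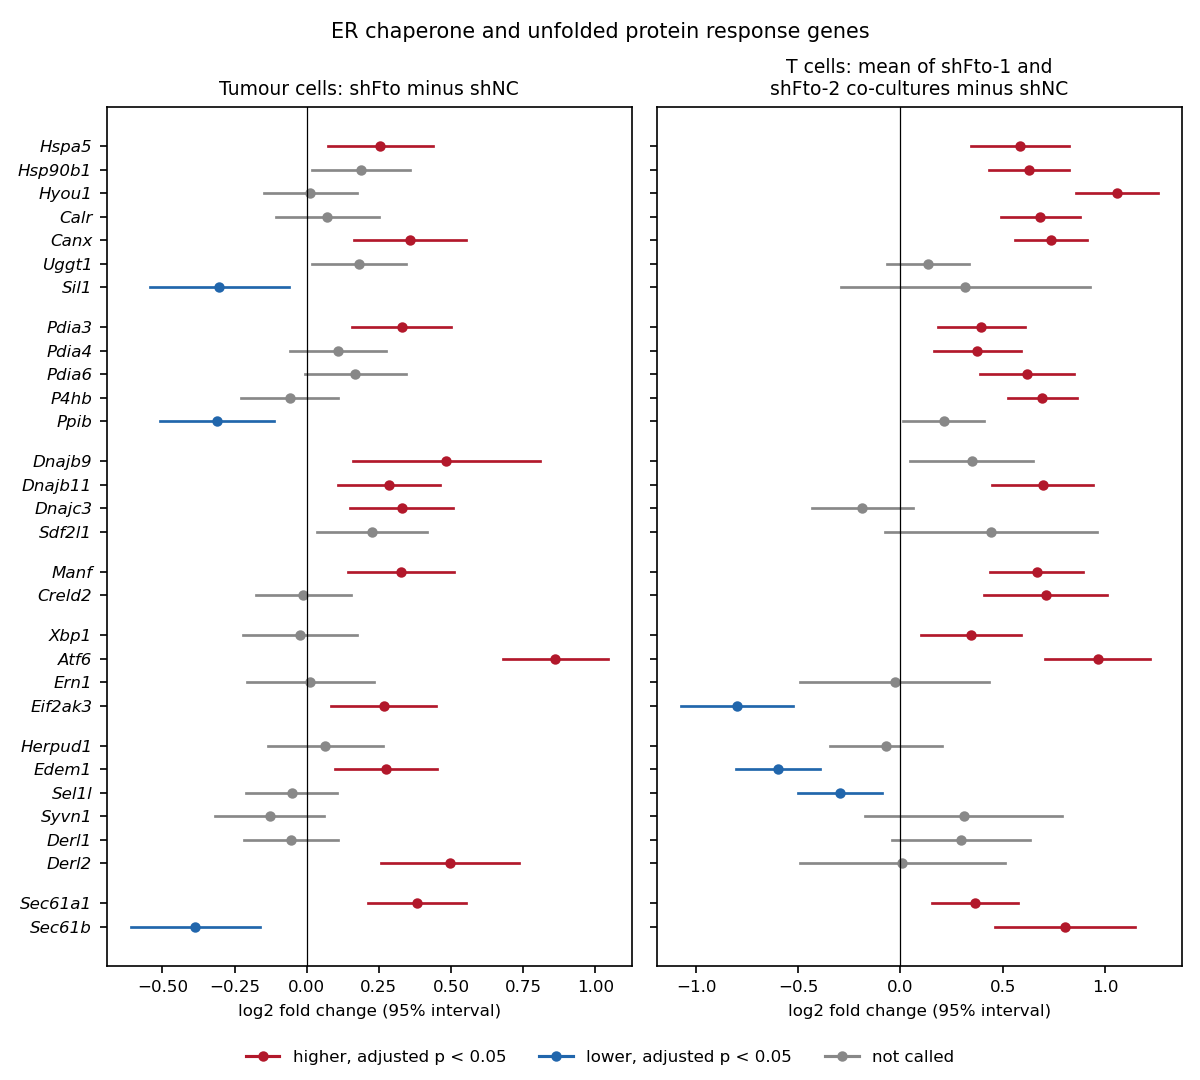
Log2 fold changes (x axis; point) with 95% intervals (line) of the 30 tested genes, ordered by role from lumenal chaperones at the top to the translocon at the bottom. Left, shFto minus shNC tumour cells; right, the mean of shFto-1 and shFto-2 minus shNC T cell co-cultures; red genes were called higher, blue lower and grey neither by edgeR. The scales of the x axes differ.

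Set side by side, 7 of the 30 genes (23.3%) rose in both cell types: Atf6, Canx, Dnajb11, Hspa5, Manf, Pdia3 and Sec61a1. Of the 10636 genes tested in both tables, 3.36% did so. Another 8 (26.7%) rose in T cells and were not called in tumour cells, against 14.3% of all genes: Calr, Creld2, Hsp90b1, Hyou1, P4hb, Pdia4, Pdia6 and Xbp1. For Hyou1 the log2 fold change was 0.01 (95% interval -0.15 to 0.17) in tumour cells and 1.06 (0.86 to 1.26) in T cells. Derl2, Dnajb9 and Dnajc3 (10.0%, against 10.4% of all genes) rose in tumour cells and were not called in T cells. Eif2ak3 and Edem1 rose in tumour cells and fell in T cells, and Sec61b fell in tumour cells and rose in T cells. Opposite calls of this kind made up 10.0% of the 30 genes and 8.48% of all genes. The tables were fitted apart, and no difference between the cell types was tested. The T cell libraries also held the melanoma markers, as given above, and the part of tumour RNA in these counts was not tested.

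Of all genes tested, 20.3% rose and 12.7% fell in T cells, and 15.9% rose and 16.9% fell in tumour cells. Among the 31 genes, 8 with an ER stress element were tested. Of these, 6 rose and none fell in T cells (median log2 fold change 0.62), and 3 rose and none fell in tumour cells (median 0.18). Of the 16 with a promoter entry and no element, 6 rose and 3 fell in T cells (median 0.28), and 6 rose and 2 fell in tumour cells (median 0.14). Of the 6 without a promoter entry, 4 rose and none fell in T cells (median 0.52), and 3 rose and 1 fell in tumour cells (median 0.17). Outside these genes, edgeR called 0 of the 7 further genes with the element that were tested in T cells (median -0.02), where 1 had an unadjusted p below 0.05 and DESeq2 called 1. Of the 9 tested in tumour cells 3 rose and 2 fell (median -0.02). These are counts and no difference between them was tested.

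The related pathways in T cells are given in the same way, where 20.3% of all genes rose and 12.7% fell. Of 33 genes of translocation, signal peptide cleavage and N-glycosylation, 21 rose and 1 fell, with a median of 0.46. Rpn1, a subunit of the oligosaccharyltransferase, averaged 481 CPM beside shFto cells and 228 CPM beside shNC cells (log2 fold change 1.06, edgeR adjusted p = 3.39e-05), Mogs, which trims the first glucose, rose by 0.91, and Ostc by 0.88. Of 19 genes of ER exit and retrieval 9 rose and none fell, with the vesicle coat components Sec13 (0.76) and Sar1a (0.68) and the cargo receptor Tmed2 (0.62) named by the smallest p. Of 11 genes of ATF6 processing and related factors 4 rose and none fell: Atf6b, the relative of Atf6, averaged 79.8 CPM beside shFto cells and 42.9 CPM beside shNC cells (0.90), and the NF-Y subunits Nfyb and Nfyc rose by 0.79 and 0.56. Of 10 genes of the PERK arm 3 rose and 2 fell. Their median was -0.18, below that of all genes, and 4 of the 10 had a log2 fold change above 0. Eif2s1, the substrate of PERK, rose by 0.99, Atf3 by 0.97 and Atf4, the factor translated when PERK is active, by 0.73. The 2 that fell, named here because they are few, were Trib3 (-0.66) and Nck2 (-0.61). Of 18 other degradation genes 5 rose, Vcp (0.60), Vimp (0.80) and Nploc4 (0.50) among them, and of 20 oxidative folding genes 6 rose and 1 fell, with Txndc5 at 0.61, Erp44 at 0.48 and Erp29 at 0.48. The medians were 0.38 for ER exit and retrieval, 0.32 for ATF6 processing, 0.08 for oxidative folding and 0.05 for the other degradation genes, against -0.01 for all genes.

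The m6A peak lists gave a description of the same transcripts in tumour cells, with 1 antibody library per condition and therefore no test. Fold enrichments are the authors' exomePeak values of antibody over input. Of the 30 tested genes, 20 (66.7%) had a peak in the shFto list, 22 (73.3%) in the Dac51 list and 15 (50.0%) in the shNC list. Over all genes tested in tumour cells these shares were 53.6%, 49.9% and 44.2%, in lists of 10811, 9850 and 8479 peaks. With peaks of a fold of at least 2 only, the counts were closer: 15 genes in shFto, 16 in Dac51 and 14 in shNC. The same limit was not applied to all genes. All 15 genes with an shNC peak also had a peak in both other lists. Calr, Herpud1, P4hb and Pdia3 had peaks in the shFto and Dac51 lists only, at folds of 1.10 to 2.13. Edem1, Hyou1 and Sdf2l1 had a peak in the Dac51 list alone (folds 2.28, 1.57 and 1.36), and Pdia6 in the shFto list alone (1.70). Canx, Creld2, Derl3, Dnajc3, Hsp90b1, Ppib, Sec61a1 and Sec61b had none.

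Hspa5 carried a strong peak at the 3′ end of the gene (chr2:34775638-34776440, plus strand, mm10, in the shFto list), ending 89 bases from the gene's end. Its fold was 18.3 in the shFto list and 17.6 in the Dac51 list, against 8.1 in the shNC list, and a second, weak peak of Hspa5 had folds of 1.13, 1.09 and 1.16. The peak of Sel1l was also high, at 24.8 in shFto and 28.1 in Dac51, against 14.6 in shNC (chr12:91808623-91809582, minus strand, shFto list). Dnajb9 had the highest fold of these genes in each list, 27.6 in shFto and 42.5 in Dac51, against 26.2 in shNC.

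The sensors all carried peaks in each list. Atf6 had 1 peak (chr1:170709701-170710001, minus strand, shFto list), 5244 bases from the 3′ end of the gene, with folds of 7.59 in shFto and 9.98 in Dac51, against 4.68 in shNC. Ern1 had folds of 5.34 in shFto and 8.2 in Dac51, against 4.28 in shNC, and Xbp1 had 1.93 and 2.68, against 1.99. Eif2ak3 had 2 peaks. The one nearer the 3′ end (chr6:70904191-70904611, plus strand, shFto list) had folds of 11.2 in shFto and 13.9 in Dac51, against 12.7 in shNC, and the other 10.7 and 14.2, against 6.9. At these 5 peaks of the 3 sensors and Xbp1, the Dac51 fold was above the shNC fold at all 5 and the shFto fold at 3. Over all genes with peaks in both lists, the strongest peak was above that of shNC in 78.5% for Dac51 and 80.6% for shFto.

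Taking the strongest peak of each of the 15 genes with a peak in all lists, the fold was above the shNC fold in 10 genes in shFto cells (median ratio 1.05) and in 13 genes in Dac51 (median ratio 1.35). Over all genes with peaks in both lists the shares were 80.6% of 4991 genes in shFto, with a median ratio of 1.48, and 78.5% of 4880 genes in Dac51, with a median ratio of 1.44. The ratios ran up to 2.26 for Hspa5 in shFto and 2.25 for Derl2 in Dac51 (folds 14.5 in Dac51, against 6.45 in shNC). At the low end, Dnajb11 had 2.29 in shFto, against 15.6 in shNC, but its strongest peaks lay at different places in these lists. Sil1 had 11.6 in shFto and 6.28 in Dac51, against 5.90 in shNC, and Pdia4 9.36 and 6.07, against 5.86.

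By position, 15 of the 25 peaks of these genes in the shFto list (60.0%) ended within 1000 bases of the 3′ end of the gene, 16 of 27 in the Dac51 list (59.3%) and 10 of 20 in the shNC list (50.0%). Over all annotated genes the shares were 25.9%, 23.8% and 22.1%. Of the 25 shFto peaks, 17 overlapped an shNC peak by at least 1 base, and 18 of the 20 shNC peaks overlapped an shFto peak (68.0% and 90.0%, against 66.7% and 88.7% of all peaks of these lists). Of the 27 Dac51 peaks 17 overlapped an shNC peak, and 19 of the 20 shNC peaks overlapped a Dac51 peak (71.5% and 85.9% over all peaks of these lists). Of the 15 genes with peaks in all lists, 7 rose and 1 fell in the RNA of shFto cells (46.7% and 6.67%), against 17.9% and 16.1% of all 4730 tested genes with such peaks. Of the 7 tested genes with no peak in any list 3 rose and 2 fell (42.9% and 28.6%), against 12.9% and 18.5% of all 4812 such genes.

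**Figure D5:**
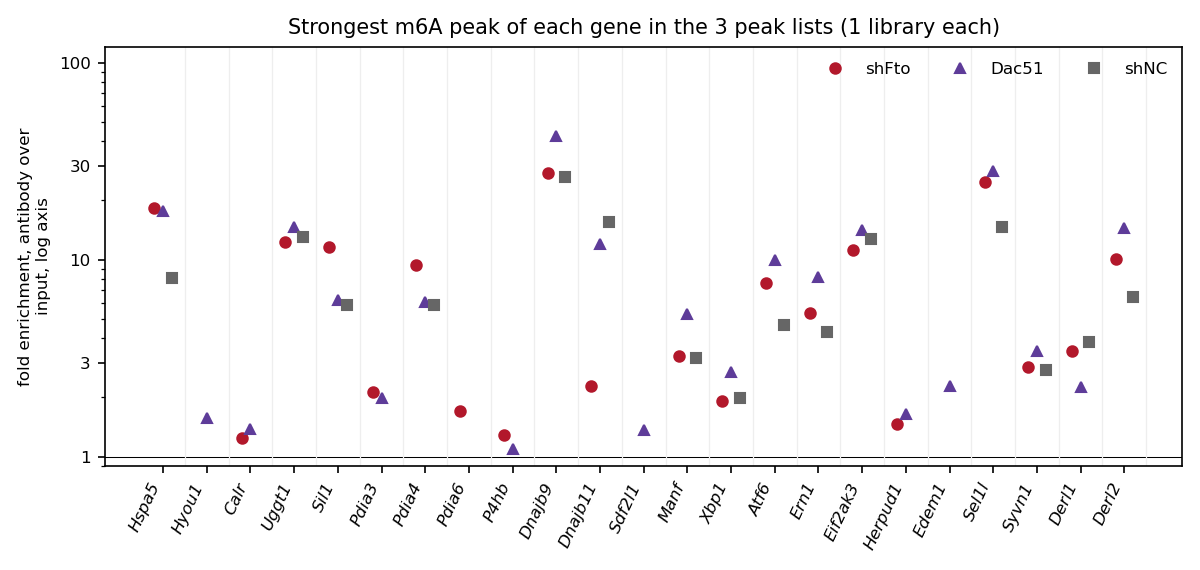
Fold enrichment of antibody over input (y axis, log scale) of the strongest m6A peak of each of the 23 genes with a peak in any list, from 1 library each of shFto cells (circles), Dac51-treated shNC cells (triangles) and shNC cells (squares). Hspa5, Sil1, Pdia4, Dnajb9, Manf, Atf6, Ern1, Sel1l, Syvn1 and Derl2 have both the shFto and the Dac51 symbol above the shNC symbol. Taken singly, the shFto fold was above the shNC fold in 80.6% of all genes with peaks in both lists, and the Dac51 fold in 78.5%. The share with both above was not counted over all genes. No shNC symbol is shown for 8 genes.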

How the data were processed

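RNA-seq covered 12 libraries, m6A-seq 3 antibody libraries with inputs and ATAC-seq 6 libraries. Tools listed by the submitters' processing notes, without their roles, are STAR 2.7.0f, Bowtie2 2.3.5, MACS2 2.1.3, Trim Galore 0.6.0, Picard and deepTools, and the build is mm10. The counting tool and its strand setting are not given in the sources used here. The deposited tables hold raw counts per gene symbol, per the file headers. The deposited m6A lists hold exomePeak's fold enrichment ratio, p-value and log10 scores per peak, called per condition, per the labels. The deposited ATAC-seq lists hold MACS fold enrichment ratios, -log10 p and a score per peak of each library, per the file headers.

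From these, edgeR 4.0.16 (R 4.3.3) gave quasi-likelihood tests of the counts (TMM factors, its default filter on low counts, Benjamini-Hochberg adjustment over all genes, threshold 0.05), tumour and T cell tables apart, the T cell groups in 1 fit. SE are of the log2 fold change, and intervals are 95%. CPM use the TMM-scaled library size. The common biological coefficient of variation was 0.0906 in tumour and 0.199 in T cell libraries, and the fit was tested on simulated data. Alternatives were DESeq2 1.42.0, library totals, no filter, a replicate block and leaving out each library, and for peaks a fold of at least 2, a log10 false discovery rate of at most -5, equal list lengths and a stricter overlap. Peaks, promoters and figures were handled in Python 3.11.15 with pandas 2.3.3, NumPy 2.4.6 and Matplotlib 3.10.9. Promoters and gene positions came from RefSeq (GRCm38.p6, the assembly of mm10).

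The 31 genes and the lists were chosen with earlier results of these data known. Their shares beside those of all genes are therefore descriptions, and no p is adjusted over the list. Named with every library's value were Hspa5, Xbp1, Atf6, Ern1, Eif2ak3 and the 10 genes with the smallest adjusted p in the tumour and the T cell mean comparison. Of the other pathway lists, up to 3 called genes with the smallest adjusted p are named, and promoters of up to 4 called genes with a full ER stress element are printed.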

Additional observations from a re-analysis of the deposited data

Results flagged for a closer look

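For 4 genes, every tumour library of shFto cells moved one way from the shNC libraries and every T cell library beside shFto cells moved the other way. They are 13.3% of the 30 genes tested in both tables, against 14.6% of all 10636 such genes. Eif2ak3 had a log2 fold change of 0.27 in tumour cells and -0.80 in T cells (mean of both lines), and Edem1 had 0.27 in tumour cells and -0.60 in T cells. Sec61b had -0.39 in tumour cells and 0.80 in T cells, and Ppib had -0.31 in tumour cells and 0.21 in T cells, where Ppib was not called. In tumour cells the call of Eif2ak3 was lost under 3 of 10 alternatives. The tumour calls of Edem1, Sec61b and Ppib were lost under 2 of 10 each. The difference between the cell types was not tested for any of the 4 genes, because the tables were fitted apart.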

How the results depend on the processing

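No called value changed direction under any alternative run, and 100 of the recomputed counts stayed within 1.5 times the main count while 15 moved. For shFto-2 against shFto-1 co-cultures, where edgeR called 0 of the 30 genes, DESeq2 called 4, the fit without a filter 3 and the replicate block 1. Over all genes that comparison gave 245 calls, against 1008 by DESeq2, 838 without a filter, 446 with the replicate block and 1 to 507 with 1 library left out (1 without shFto-1 replicate 1). Leaving out 1 library gave 9 to 15 calls of the 30 genes in tumour cells (9 without shFto replicate 1) and 2468 to 4423 over all genes, and for shFto-1 against shNC 9 to 15 (9 without shFto-1 replicate 2) and 1587 to 2878 over all genes (1587 without shFto-1 replicate 1). Deviations of same-numbered libraries correlated at 0.01, 0.04 and -0.02 in tumour cells, and in T cells at 0.37 between shFto-2 and shFto-1 and at -0.32 and -0.21 against shNC. With 2 libraries per T cell group, the deviations within a group mirror each other. The T cell values therefore cannot decide whether the numbers pair the libraries. With the replicate block, 14 of the 30 genes were called in tumour cells, 19 in the T cell mean, 16 beside shFto-1 and 18 beside shFto-2. Over all genes the block gave 3736, 4223, 2903 and 4300 calls in the same order. Library totals gave 8 higher and 3 lower beside shFto-1 and 11 higher and 4 lower beside shFto-2, against 12 and 2, and 16 and 2, with TMM. The split over all genes moved as well. Beside shFto-1 it was 1293 higher and 1536 lower with library totals, against 1976 and 877 with TMM. Beside shFto-2 it was 1906 higher and 2344 lower, against 2616 and 1706 with TMM. At a fold of at least 2, 15 of 16 shFto peaks of these genes overlapped a Dac51 peak (93.8%), against 23 of 25 with no such limit (92.0%). The overlap of shFto with Dac51 peaks was not counted over all genes, so these shares have no background beside them. The T cell library of lowest depth was shNC replicate 1 (2628158 counts). Leaving it out leaves 1 shNC library, which is assumed to vary like the other groups. In the mean contrast, log2 fold changes were then 0.26 for Pdia3, 0.25 for Pdia4, 0.24 for Xbp1, 0.29 for Sec61a1 and -0.30 for Sel1l. In the main fit they were 0.40, 0.38, 0.35, 0.36 and -0.30. These are the calls of the mean contrast that were not kept, and the cause was not tested.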
